A study of Mus musculus with 6 samples.

Results

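Base excision repair and the direct reversal of alkylation damage are the pathways by which cells mend single damaged bases. Here 10 genes of these pathways were followed in mouse embryonic stem (ES) cells with a knockout (KO) of Alkbh1, against wild-type (WT) cells. They were chosen by name and role, with earlier results of these data known. They comprise the alkyl transferase gene Mgmt, the DNA glycosylase genes Mpg, Ung, Ogg1, Smug1 and Nthl1, the AP endonuclease gene Apex1, and the single-strand break repair genes Parp1, Xrcc1 and Lig3. All 10 are among the 14095 genes that were tested, of 23951 in the authors' deposited table.

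In base excision repair, a glycosylase cuts a damaged base from its sugar and leaves an abasic (AP) site. APEX1 then cuts the strand at that site. PARP1 senses the break, and XRCC1 holds the polymerase and the DNA ligase LIG3 in place while the gap is closed. In direct reversal no base is removed, since MGMT takes the alkyl group off guanine onto its own cysteine, and the AlkB dioxygenases ALKBH2 and ALKBH3 oxidise methyl groups off DNA bases. In ES cells base excision repair also serves active cytosine demethylation, in which the glycosylase TDG removes oxidised methylcytosine.

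The study sequenced messenger RNA of Alkbh1 KO ES cells in 4 libraries, 2 from each of 2 clones, and of WT ES cells in 2 libraries. All cells were of the TT2 line, from a C57BL6 x CBA background, had reached passage 5 and were cultured feeder-free. The labels do not say whether the libraries were separate cultures, nor which part of Alkbh1 was deleted. The deposited table gives each gene 1 level for KO and 1 for WT, in FPKM (fragments scaled to transcript length and to the mapped total), with the authors' own test of the difference. Since single libraries were given no values, no SD can be printed, the 2 clones cannot be set against each other, and depth is unknown. Genotype and clone cannot be told apart. A gene is called where the deposited q, a p-value adjusted over all tested genes, was under 0.05.

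The targeted gene stood at 18.1 FPKM in KO and 33.9 FPKM in WT in the authors' deposited table, in a region it shares with other genes. It was not called, with a log2 fold change (KO over WT) of -0.90 and q = 0.0943 in the authors' deposited table. Of 8 ES cell marker genes, all were present, between 49.0 and 2099 FPKM in KO and between 75.0 and 3753 FPKM in WT in the authors' deposited table. They summed to 4483 FPKM in KO and 7285 FPKM in WT, and 6 of the 7 tested were called lower, against 28.4% of all tested genes. Their median log2 fold change (KO over WT) was -0.76, or -0.04 relative to genes of the same decile by level. Of 8 fibroblast markers, 7 lay under 1 FPKM in both genotypes, and the list summed to 11.4 FPKM in KO and 7.32 FPKM in WT, mostly Thy1. Of these, Col3a1 and Lum were listed at 0 in WT in the authors' deposited table. All 6 markers of extraembryonic endoderm lay under 1 FPKM in both genotypes, and summed to 1.81 FPKM in KO and 1.15 FPKM in WT. The 6 trophoblast markers summed to 44.4 FPKM in KO and 49.4 FPKM in WT, of which Tfap2c alone gave 40.1 FPKM in KO and 45.7 FPKM in WT in the authors' deposited table. Of the tested markers, 3 of 3 for fibroblasts and 2 of 2 for extraembryonic endoderm were called higher, against 22.4% of all tested genes. Of 5 tested trophoblast markers, 2 were called higher and 1 lower. The median log2 fold changes relative to genes of the same decile by level were 0.58, 0.06 and 0.32 in turn. The part of ES cell markers or of other cell types in the results below was not tested.

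Of the 10 genes, Ung, Apex1 and Nthl1 fell in KO and Mgmt rose, while the other 6 were not called. These 3 lower calls make up 30% of the genes, against 28.4% of all tested genes that were called lower. The 1 higher call makes up 10%, against 22.4% of all tested genes, and the 4 calls together make up 40%, against 50.8%. The share of changed genes is thus near or under that of the whole table. Making the FPKM totals of the genotypes equal adds 0.65 to every log2 fold change. It moves the median of all tested genes to 0.59. The fold changes of the 4 called genes then point lower in 2 (Ung and Apex1) and higher in 2 (Mgmt and Nthl1). The deposited q was kept and not recomputed on that scale. The other 6 genes therefore could not become called there, and no call could be lost. In bulk RNA, fewer cells that express a gene and less of its RNA per cell cannot be told apart. The median log2 fold change (KO over WT) was 0.09 over the 10 genes and -0.06 over all tested genes. The spread among them ran from -1.02 for Apex1 to 0.54 for Mgmt in the authors' deposited table.

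**Figure D1:**
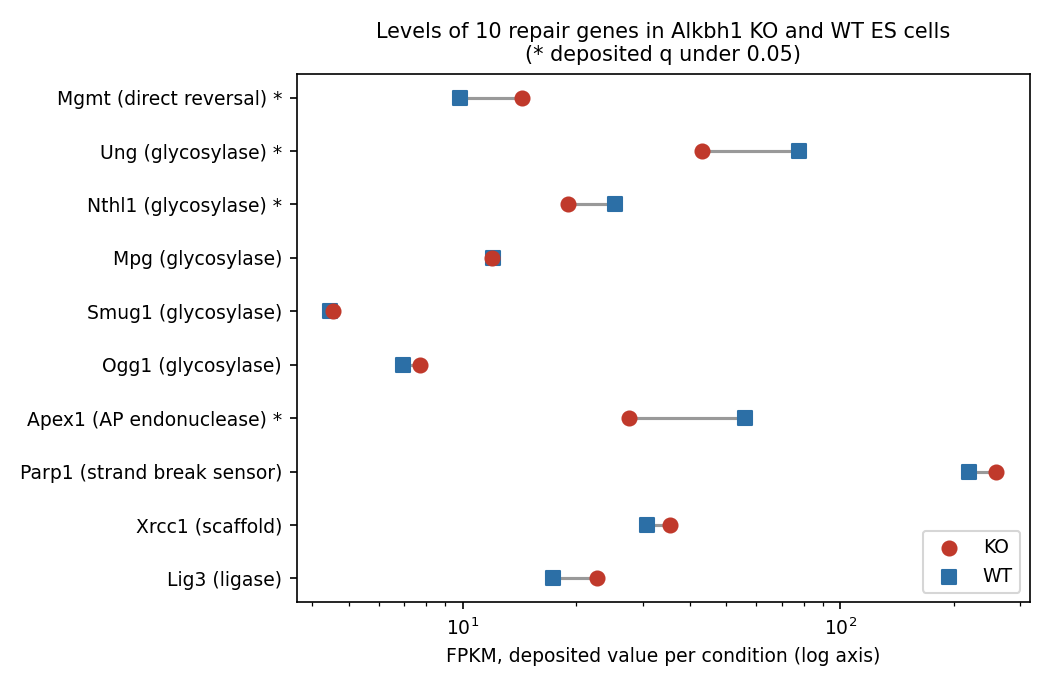
Levels of the 10 repair genes in FPKM on a log axis, 1 deposited value for KO (red circles) and 1 for WT (blue squares), with no error because libraries have no values of their own. Ung, Nthl1 and Apex1 have their KO value left of the WT value, Mgmt has it to the right, and an asterisk marks these 4 called genes.

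Mgmt was the only called gene among the 10 that was higher in KO. Its level was 14.4 FPKM in KO and 9.87 FPKM in WT in the authors' deposited table (chromosome 7, 144086293 to 144319871, mm9). That is a 1.46-fold difference, with q = 0.016 and a deposited log2 fold change of 0.54 in the authors' deposited table. Among the 1409 tested genes in the same decile by level (mean of KO and WT from 11.9 to 19.6 FPKM), 92.0% had a lower fold change than Mgmt. In that decile 12.4% of genes were called higher and the median log2 fold change was -0.15.

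The other direct reversal genes did not follow Mgmt. Both were called lower, against 28.4% of all tested genes, and lie near each other in size of change. They are in the same decile by level as Mgmt, where 31.3% of genes were called lower. Relative to the median of that decile, Alkbh2 stood at -0.42 and Alkbh3 at -0.41. Alkbh2 stood at 14.0 FPKM in KO and 20.9 FPKM in WT, with q = 0.00448 and a log2 fold change of -0.57 in the authors' deposited table. Alkbh3, whose protein acts on single-stranded DNA and on RNA, stood at 10.6 FPKM in KO and 15.7 FPKM in WT in the authors' deposited table, with -0.56 and q = 0.00498. With equal totals Alkbh2 and Alkbh3 turn to 0.08 and 0.09, while Mgmt stays higher at 1.20.

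The upstream sequences of Mgmt, which rose, and of Ung, which fell, are shown so that their makeup can be compared. They are the 250 bases before the RefSeq start of each gene on build GRCm38.p6, another build than the table's mm9, both on the plus strand. The sequence shortly after the start was found in a GENCODE M21 transcript of the gene for Ung but not for Mgmt. Capitals mark matches on either strand to any of 5 motifs that were searched, namely the E2F-type TTTNNCGC, the GC box GGGCGG, the CCAAT box, the E-box CACGTG and the NRF1-type TGCGCA.
Mgmt, chr7:136894336-136894585: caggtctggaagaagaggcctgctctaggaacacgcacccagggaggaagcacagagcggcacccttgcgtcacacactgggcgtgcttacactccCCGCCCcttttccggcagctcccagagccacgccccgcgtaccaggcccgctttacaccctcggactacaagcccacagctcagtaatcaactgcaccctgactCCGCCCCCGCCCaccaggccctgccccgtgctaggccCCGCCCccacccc
Ung, chr5:114130185-114130434: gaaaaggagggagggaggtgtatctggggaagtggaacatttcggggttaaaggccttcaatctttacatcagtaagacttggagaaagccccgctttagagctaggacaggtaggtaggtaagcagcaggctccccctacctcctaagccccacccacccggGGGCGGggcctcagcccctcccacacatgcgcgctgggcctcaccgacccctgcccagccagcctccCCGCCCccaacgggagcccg
In both windows the capitals are GC boxes alone, the element that Sp1-type factors bind, with 4 matches at Mgmt and 2 at Ung. RefSeq lists a further start for Mgmt 18512 bases downstream, whose window has none of the 5 motifs. Such a box is in 32.7% of the 32851 RefSeq promoter windows of this length and in 7 of the 10 repair genes. The Mgmt window holds 15 CpG and the Ung window 10, against a median of 6 over all windows.

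Of the 5 glycosylase genes, Ung and Nthl1 fell and Mpg, Smug1 and Ogg1 were not called. UNG removes uracil from DNA, mostly uracil put in during replication. Ung stood at 43.1 FPKM in KO and 78.0 FPKM in WT (chromosome 5, 114580443 to 114589330, mm9) in the authors' deposited table. The fold change of -0.86 carries q = 0.000206 in the authors' deposited table, the smallest q that the table holds and 1 that many genes share, and the KO level is 55.2% of the WT level. Genes of Ung's level (34.6 to 76.6 FPKM) were often lower as well, with 59.5% called lower and a median log2 fold change of -0.51. Of them, 18.8% lay below Ung. With equal totals Ung would stand at -0.20.

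Nthl1, which encodes the glycosylase for oxidised pyrimidines, was close to the threshold. It stood at 19.0 FPKM in KO and 25.3 FPKM in WT (chromosome 17, 24769626 to 24775783, mm9), with q = 0.0435 and a log2 fold change of -0.41 in the authors' deposited table. This is about the change of genes of its level, whose median was -0.34 and of which 44.2% lay below Nthl1. With equal totals its direction turns, to 0.24.

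Mpg, Smug1 and Ogg1 had deposited levels that lay close together in the genotypes, and with equal totals their log2 fold changes would be 0.64, 0.68 and 0.80. Mpg, which encodes the enzyme for alkylated purines, stood at 11.97 FPKM in KO and 12.1 FPKM in WT (chromosome 11, 32126504 to 32167707, mm9), with q = 0.979 in the authors' deposited table. Smug1, whose product is a further uracil glycosylase, stood at 4.54 FPKM in KO and 4.45 FPKM in WT (chromosome 15, 102983720 to 102993715, mm9), with q = 0.912 in the authors' deposited table. Ogg1, whose product removes oxidised guanine, stood at 7.71 FPKM in KO and 6.96 FPKM in WT (chromosome 6, 113276969 to 113293916, mm9), with q = 0.682 in the authors' deposited table. A q above the threshold does not show that these levels are alike, and the deposited values give no interval for the difference.

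Ung thus made up a smaller part of the summed messages of these 5 glycosylase genes in KO. The 5 genes summed to 86.3 FPKM in KO and 126.8 FPKM in WT, of which Ung gave 49.9% in KO and 61.5% in WT. The level of Ung was 9.49 times that of Smug1 in KO and 17.5 times in WT. These ratios are per length of transcript and stay the same under any single scaling factor per genotype, but they were not tested. They do not allow for the trend of fold change with level. The median log2 fold change was -0.51 among genes of Ung's level and 0.23 among genes of Smug1's level. Relative to these medians, Ung stood at -0.35 and Smug1 at -0.20.

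Among the AP site and strand break genes, Apex1 fell and Parp1, Xrcc1 and Lig3 were not called. Apex1 stood at 27.6 FPKM in KO and 56.1 FPKM in WT (chromosome 14, 51544623 to 51550524, mm9) in the authors' deposited table. Its log2 fold change of -1.02 is the furthest from 0 among the 10 genes, with q = 0.0233 in the authors' deposited table. Of the genes of its level, 8.56% lay below it, and with equal totals it would stand at -0.37. Its error is wider than that of most genes. The fold change divided by the authors' test statistic, a gauge of the error behind it, was 0.636 for Apex1 and 0.256 for Ung, and 91.4% of tested genes had a smaller value than Apex1. Tmem55b, which shares this region, stood at 47.7 FPKM in KO and 109.9 FPKM in WT in the authors' deposited table. Tmem55b was called lower, as were 28.4% of all tested genes. Its log2 fold change was -1.20, with q = 0.000206 in the authors' deposited table. The sources used here do not state how reads were divided between Apex1 and Tmem55b.

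Parp1 was the most abundant of the 10 genes in both genotypes. It stood at 259 FPKM in KO and 219 FPKM in WT (chromosome 1, 182499105 to 182531385, mm9), with q = 0.177 and a log2 fold change of 0.24 in the authors' deposited table. That is far from the trend of abundant genes. In its decile by level (above 76.7 FPKM) 76.6% of genes were called lower, the median was -0.72, and 97.1% of genes had a lower fold change than Parp1. The microRNA gene Mir6904, which shares the Parp1 region, was listed at 218 FPKM in KO and at 0 in WT with q = 0.123 in the authors' deposited table, and so short a transcript is poorly measured by a messenger RNA library.

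Xrcc1 and Lig3 also had higher fold changes than most genes of their level. Xrcc1 stood at 35.3 FPKM in KO and 30.7 FPKM in WT (chromosome 7, 25332168 to 25358457, mm9), with q = 0.293 and a log2 fold change of 0.20 in the authors' deposited table. Lig3 stood at 22.8 FPKM in KO and 17.3 FPKM in WT (chromosome 11, 82594610 to 82684712, mm9), with 0.39 and q = 0.0807 in the authors' deposited table. Among genes of their level, 85.7% lay below Xrcc1 and 92.2% below Lig3. The differences between these genes and Apex1 or Ung were not tested, since the libraries have no values of their own.

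**Figure D2:**
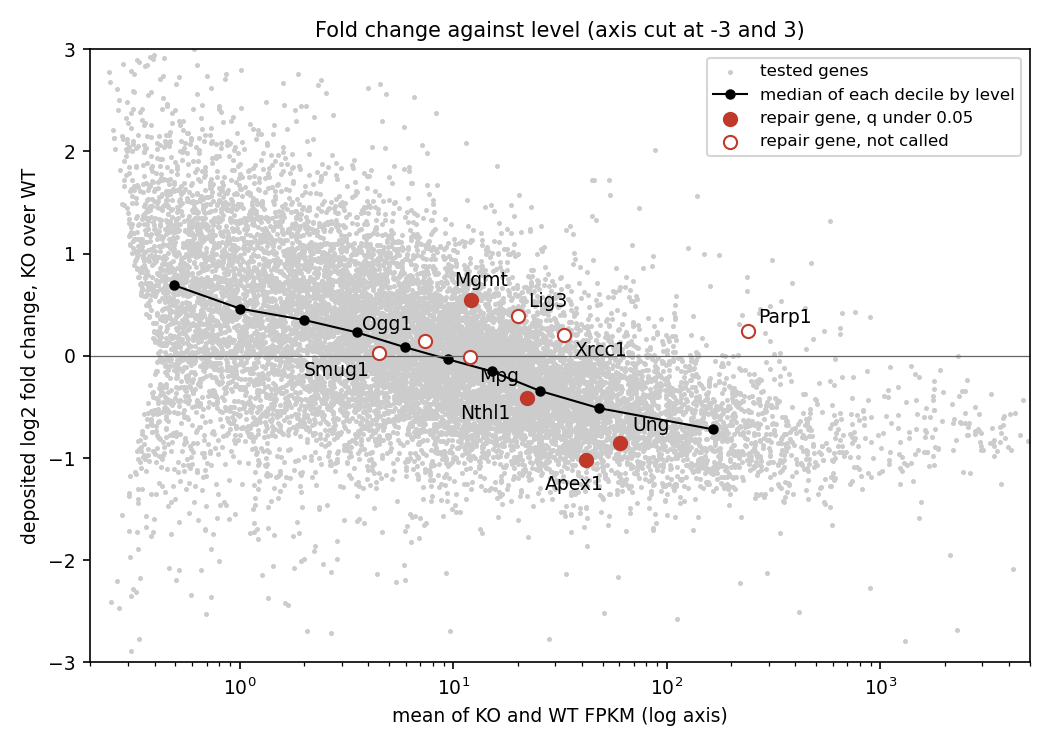
Deposited log2 fold change (KO over WT) of tested genes against the mean of KO and WT FPKM on a log axis, with the median of each decile by level as a black line and the 10 repair genes in red (filled where q was under 0.05). Ung and Apex1 lie below the line, Nthl1 lies close to it, and Mgmt, Lig3, Xrcc1 and Parp1 lie above it, Parp1 by 0.96.

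Fold changes in this table also ran with transcript length, and the repair genes differ widely in it. The longest annotated transcript measured 1079 bases for Nthl1, 1239 for Apex1 and 2136 for Ung. It measured 3873 bases for Parp1 and 5957 for Lig3. The median log2 fold change was -0.49 in the shortest decile of genes and 0.44 in the longest. Against genes in the same decile by length, Apex1 stood at -0.62, Ung at -0.64 and Mgmt at 0.69. Lig3 stood at 0.16 and Parp1 at 0.25 on that scale, and Nthl1 turned to 0.08. The part of length and of level in the calls was not tested.

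**Figure D3:**
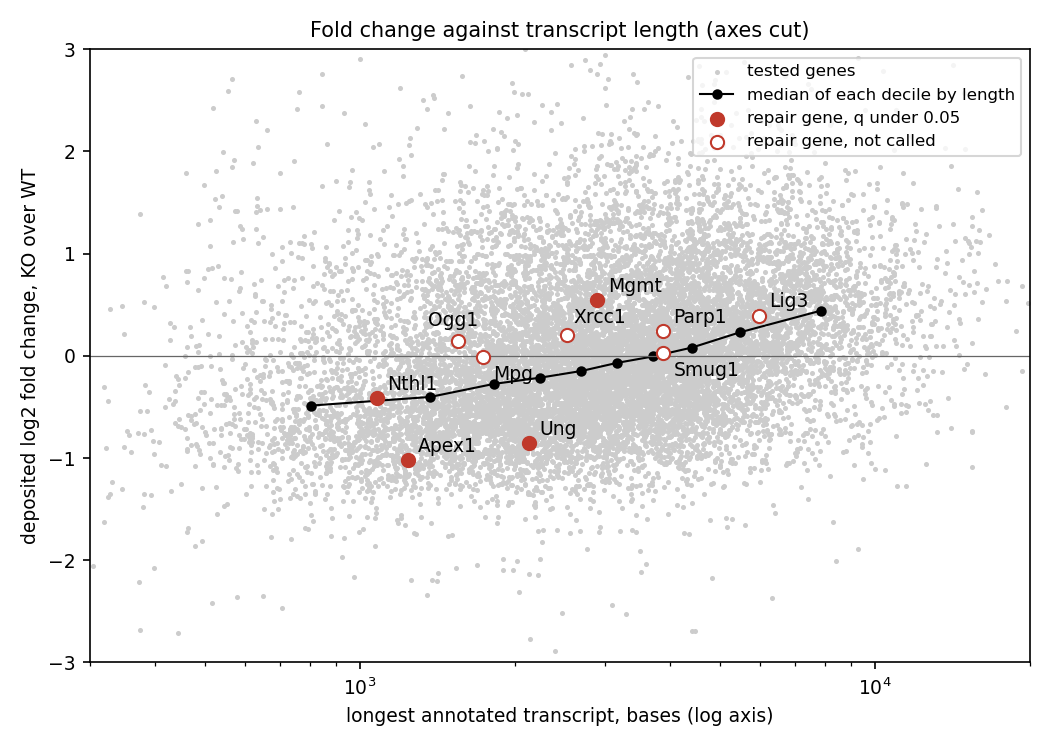
Deposited log2 fold change (KO over WT) against the longest GENCODE M21 transcript on a log axis, with the median of each decile by length as a black line and the 10 repair genes in red (filled where q was under 0.05). Apex1 and Ung lie 0.62 and 0.64 below the line and Mgmt lies 0.69 above it, while Nthl1 and Smug1 lie within 0.08 of it.

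Genes that lie beside the repair genes were compared where they share a region or lie within 1000 bases. Osgep, a tRNA modification gene that reads away from Apex1 with a gap of 55 bases between them, was lower as well. Its level was 36.2 FPKM in KO and 51.9 FPKM in WT in the authors' deposited table. The log2 fold change was -0.52, with q = 0.00374 in the authors' deposited table. Relative to the median of its decile by level, Osgep stood at -0.01, and with equal totals it turns to 0.13. Nthl1 and its neighbour Tsc2 differed in direction as deposited. With equal totals both lie above 0, Nthl1 at 0.24 and Tsc2 at 1.25, and the difference between them stays the same. Relative to the medians of their deciles by level, Nthl1 stood at -0.07 and Tsc2 at 0.63. Tsc2, a tumour suppressor gene of mTOR signalling that reads away from Nthl1 across 54 bases, stood at 13.96 FPKM in KO and 9.21 FPKM in WT in the authors' deposited table, with 0.60 and q = 0.00191. Pkd1, which shares the Tsc2 region, was also called higher, at 1.11 FPKM in KO and 0.154 FPKM in WT in the authors' deposited table. Slc9a3r2, Rad51d, Nprl3, Camk1 and Rffl, beside Nthl1, Lig3, Mpg, Ogg1 and Lig3, were not called. Of the 10 repair genes, 5 share a region with another gene in the table (Mpg, Ogg1, Apex1, Parp1 and Lig3). Their values may be less certain for it, which was not tested. The gauge of error ran from 0.255 for Parp1 to 0.636 for Apex1 among them. Among the rest of the 10 it ran from 0.256 for Ung to 0.327 for Mgmt. Ung and Alkbh2, which read away from each other with 2258 bases between them, were both called lower, against 28.4% of all tested genes. Relative to the medians of their deciles by level, Ung stood at -0.35 and Alkbh2 at -0.42. Alkbh2 turns with equal totals as given above.

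The stretches that separate these head-to-head pairs are shown because as measured 1 pair was lower in both genes and the other was not. Each has the length of the gap and ends just before the RefSeq start of the repair gene, on the plus strand of GRCm38.p6, with the same 5 motifs in capitals.
Apex1, chr14:50924894-50924948: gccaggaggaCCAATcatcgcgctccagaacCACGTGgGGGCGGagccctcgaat
Nthl1, chr17:24632628-24632681: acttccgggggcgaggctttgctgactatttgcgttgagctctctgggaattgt
The Apex1 stretch holds a CCAAT box, an E-box and a GC box, and the Nthl1 stretch holds no match to the 5 motifs. Over its whole window of 250 bases, Nthl1 has 2 CCAAT boxes, 1 GC box and 1 E2F-type match. In windows of 250 bases, a CCAAT box was in 6 of the 10 repair genes and in 33.8% of all RefSeq promoter windows. The E-box was in 3 of the 10, at Apex1, Parp1 and Lig3, and in 6.02% of all windows. The E2F-type motif was in 1 of the 10, at Nthl1 further upstream, and in 4.28% of all windows, and the NRF1-type motif was in 2 of the 10 and in 6.43%. These are letter matches and show no binding.

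The other genes of the same pathways, listed by role, were mostly lower. Of 28 such genes, all tested, 15 were called lower and 2 higher (Neil3 and Nudt18). The lower calls make up 53.6%, against 28.4% of all tested genes, and the higher ones 7.14%, against 22.4%. The list's median log2 fold change was -0.53, or -0.16 relative to genes of the same decile by level, with 21 of 28 genes below the median of their decile. With equal totals the same calls split into 9 lower and 8 higher and the median turned to 0.12.

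Of the 6 glycosylase genes outside the 10, Neil3 rose and the others were not called, against 22.4% of all tested genes called higher. Neil3, whose product removes oxidised bases from single-stranded DNA and is made in dividing cells, rose to 9.99 FPKM in KO, against 5.42 FPKM in WT, with q = 0.000206 and a log2 fold change of 0.88 in the authors' deposited table. Mbd4, Mutyh, Neil1 and Neil2 had fold changes from -0.14 to 0.26 in the authors' deposited table and were not called. Tdg had the largest fold change among the 6, at 0.933 FPKM in KO and 3.50 FPKM in WT, but q = 0.281 in the authors' deposited table. Its gauge of error, 1.84, was far above the median of 0.298 over tested genes, and it was singled out after its values were seen.

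AP site and strand end processing genes fell in 5 of 6 cases, against 28.4% of all tested genes. Relative to the median of their decile by level, Apex2 stood at -0.94 and Aptx at -0.89, Tdp2 at -0.13, and Hmces and Tdp1 at -0.02 and -0.03. Apex2, a paralogue of Apex1 on the X chromosome, stood at 7.46 FPKM in KO and 14.6 FPKM in WT, with a log2 fold change of -0.97 in the authors' deposited table. Aptx, which removes AMP from failed ligations, stood at 3.20 FPKM in KO and 5.07 FPKM in WT in the authors' deposited table. Tdp2, which clears topoisomerase II from DNA ends, stood at 49.7 FPKM in KO and 77.4 FPKM in WT in the authors' deposited table. Hmces, whose protein shields AP sites in single-stranded DNA, stood at 54.7 FPKM in KO and 79.2 FPKM in WT in the authors' deposited table. With equal totals Apex2 stays lower at -0.32, and Aptx lies at -0.01, Tdp2 at 0.01, Hmces at 0.12 and Tdp1, the remaining called gene, at 0.28. Aplf was not called.

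Of the gap filling and ligation genes, 3 of 5 fell, against 28.4% of all tested genes. Pcna is in the highest decile by level and Fen1 and Polb are in the decile below it, where 76.6% and 59.5% of genes were called lower. Pcna, the sliding clamp of replication and long-patch repair, stood at 356 FPKM in KO and 723 FPKM in WT, with a log2 fold change of -1.02 in the authors' deposited table. Fen1, the flap nuclease of long-patch repair, stood at 43.4 FPKM in KO and 80.5 FPKM in WT, with -0.89 in the authors' deposited table. Polb, the gap-filling polymerase gene, stood at 37.4 FPKM in KO and 60.9 FPKM in WT, with -0.70 in the authors' deposited table. With equal totals these 3 stay lower, at -0.37, -0.24 and -0.05. Lig1, the replicative ligase gene, was not called, at 89.95 FPKM in KO and 112.7 FPKM in WT with q = 0.0591 in the authors' deposited table, nor was Poll.

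Of the poly(ADP-ribose) genes beside Parp1, 2 of 5 fell, against 28.4% of all tested genes. Relative to the median of their decile by level, Hpf1 stood at -0.10 and Parp2 at -0.02. Hpf1, whose protein directs PARP1 to serine residues, is listed under an older symbol, 2700029M09Rik. It stood at 77.7 FPKM in KO and 136.8 FPKM in WT, with a log2 fold change of -0.82 in the authors' deposited table. Parp2, the related break sensor, stood at 38.7 FPKM in KO and 55.9 FPKM in WT, with -0.53 in the authors' deposited table. With equal totals Hpf1 stays lower at -0.16 and Parp2 turns to 0.12. The level of Parp1 was 6.71 times that of Parp2 in KO and 3.92 times in WT, a ratio that was not tested.

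Genes that keep damaged nucleotides out of DNA fell in 3 of 4 cases, against 28.4% of all tested genes. Dut and Itpa are in the highest decile by level, where 76.6% of genes were called lower, and Nudt1 is in the decile below it, where 59.5% were. Dut, whose enzyme destroys dUTP and so limits the uracil that UNG must remove, stood at 99.98 FPKM in KO and 206 FPKM in WT, with a log2 fold change of -1.05 in the authors' deposited table. Itpa, which clears deaminated purine nucleotides, stood at 82.6 FPKM in KO and 166 FPKM in WT, with -1.005 in the authors' deposited table. Nudt1, which clears oxidised purine nucleotides, stood at 35.5 FPKM in KO and 69.1 FPKM in WT, with -0.96 in the authors' deposited table. With equal totals they stay lower, at -0.39, -0.35 and -0.31. Nudt18, of low level, rose to 1.62 FPKM in KO, against 0.663 FPKM in WT in the authors' deposited table. In its decile by level 40.1% of genes were called higher, the median log2 fold change was 0.46, and 85.1% of genes lay below Nudt18.

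**Figure D4:**
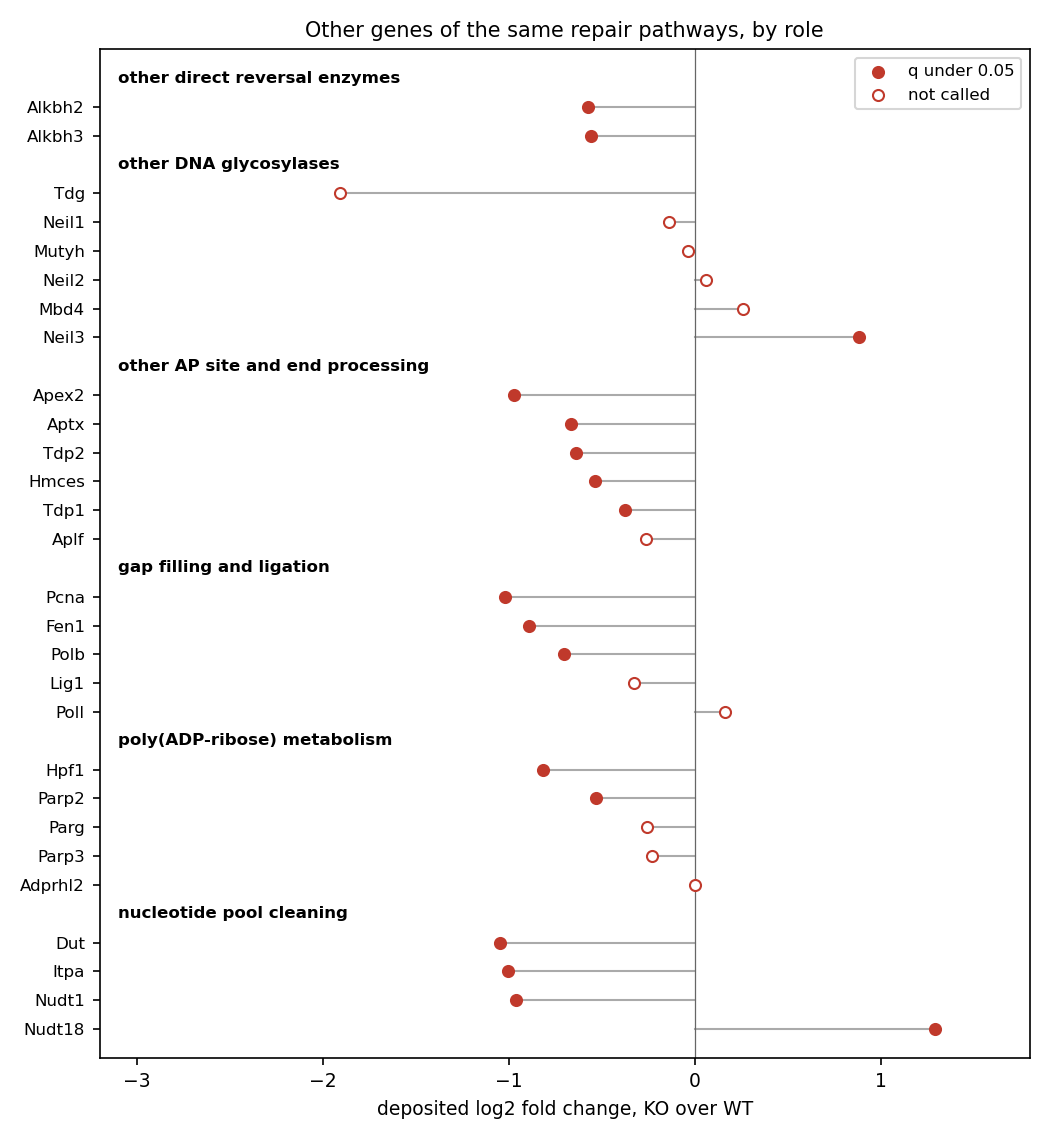
Deposited log2 fold change (KO over WT) of the 28 other repair genes, grouped by role, with filled points where q was under 0.05. Among called genes, 15 points lie left of 0 and 2 right of it (Neil3 at 0.88 and Nudt18 at 1.29).

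The calls differ in how firm they are. At q under 0.01 only Ung of the 10 genes was called, against 39.9% of all tested genes. The deposited test statistic was -3.35 for Ung in the authors' deposited table, and 23.0% of called genes had a larger one in absolute size. It was 1.66 for Mgmt, -1.61 for Apex1 and -1.41 for Nthl1 in the authors' deposited table, and 85.3%, 87.9% and 97.4% of called genes exceeded these in absolute size.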

How the data were processed

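Total RNA was turned into strand-specific messenger RNA libraries, per the labels' protocols. Reads were aligned with TopHat2 to mm9, per the submitters' processing notes. The gene annotation, and how libraries were pooled and scaled, are not given in the sources used here. Column names in the deposited table are those of Cuffdiff output, per the file headers. The table holds FPKM for each genotype, with the authors' log2 fold change (KO over WT), test statistic (a score), p-value and q-value.

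No expression test was run anew. A gene with a deposited q below 0.05 counts as called, higher or lower by its fold change. Adjusting the deposited p-values of the 14095 tested genes by Benjamini-Hochberg gave the deposited q to within 5.18e-07. The smallest deposited p-value is 5e-05. The 56 tested genes with an infinite fold change were left out of medians. Tested genes were cut into 10 classes by the mean of both FPKM, and by the longest GENCODE M21 transcript (coding where there is one), found for 13986 genes (99.2%). For equal totals, the log2 ratio of summed KO to WT FPKM, -0.65, was subtracted. The deposited q was kept there, and only the direction of each call was read anew. Promoter sequences are from RefSeq (GRCm38.p6), matched by symbol for all 10 genes, and gene direction came from GENCODE M21. Positions of genes are those of the table (mm9), where 5179 rows share a region with another.

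The 10 genes and the lists were chosen with earlier results of these data known. Some genes of these lists are not reported here. The text names all 10, up to 4 called genes per other list (those with the largest absolute fold change; Tdp1 was added as the only called gene left out by this), Alkbh1, and neighbours that share a region or lie within 1000 bases. Length classes, uncalled genes, ratios of levels and the comparison of statistics were added after the values were seen. Adjustment and centring were tested on simulated data. Python 3.11.15, NumPy 2.4.6, pandas 2.3.3 and SciPy 1.17.1 were used.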

Additional observations from a re-analysis of the deposited data

How the results depend on the processing

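No paired analysis was possible because the libraries have no values of their own, and for the same reason no replicate could be left out. Recomputing the adjustment and a minimum mean of 1 FPKM left every count of calls the same or within 1.5 times. Members called lower, 3 as reported, were 1 at q under 0.01, 2 at a 1.5-fold minimum and 2 with equal totals. Members called higher, 1 as reported, were 0 at q under 0.01, 0 at a 1.5-fold minimum, 2 at q under 0.1 and 2 with equal totals. For the 28 other genes, the 15 lower calls became 10 at a 1.5-fold minimum and 9 with equal totals. The 2 higher calls became 8 with equal totals. All counts with equal totals keep the deposited q and change only the direction of a call. They are therefore not calls made on rescaled data. The members' median of 0.09 was 0.077 with a pseudocount of 1 FPKM, 0.74 with equal totals, 0.10 against level classes, 0.46 against abundant genes and 0.21 against length classes (an alternative added after the data were seen), and the mean was -0.075. The other genes' median of -0.53 was -0.52, 0.12, -0.16, -0.17 and -0.23 on those scales in turn, and the mean was -0.42. Mpg, at -0.01, turned to 0.64 with equal totals, 0.14 against level classes, 0.36 against abundant genes and 0.27 against length classes. Smug1 turned to -0.20 against level classes, and Nthl1 to 0.24 with equal totals and 0.076 against length classes. The cause was not tested, and depth cannot be judged from FPKM.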
